A study of Mus musculus with 8 samples.

Results

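The epithelial keratins Krt7, Krt8, Krt18, Krt19, Krt20, Krt23 and Krt80 were followed as a group of 7 genes, chosen by gene name from the 54232 genes of a liver read count table. Livers came from mice 6 months old, 4 libraries from wild-type (WT) animals and 4 labelled Atp7b KO (KO). Wilson disease is caused by loss of Atp7b, a copper-exporting ATPase, and changes of bile acid physiology in it are the study's stated subject. The labels give no strain, sex or allele, and do not say whether each library is its own animal, so the tests below measure the spread between libraries, which may be partly technical.

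Keratins form the intermediate filaments of epithelial cells. Each filament pairs a type II chain (Krt7, Krt8 and Krt80 here) with a type I chain (Krt18, Krt19, Krt20 and Krt23), and an unpaired chain is degraded. Adult hepatocytes are known to hold only the Krt8 and Krt18 pair, while bile duct cells add Krt7 and Krt19. In human liver disease, Wilson disease included, Krt8 and Krt18 can collect with ubiquitin and p62 in Mallory-Denk bodies.

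Library totals ran from 9880253 to 27530506 counts in WT and from 14583961 to 18423836 in KO. Levels are CPM, counts scaled to a common total with TMM factors, and 3 counts correspond to 0.129 to 0.425 CPM in a library. Atp7b averaged 24.5 ± 10.1 CPM in WT against 7.83 ± 1.19 CPM in KO (SD, n = 4 each), a log2 fold change of -1.65 (edgeR, adjusted p = 0.00313), with WT replicate 3 at 9.63 CPM, near the KO libraries. Alb, the albumin gene that marks liver, averaged 62388 CPM in WT and 39928 CPM in KO. WT replicate 3 was also the shallowest library and had its own trend with GC content. Values without it are therefore given for Krt18, for Krt10 and for ratios between keratins.

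Of the 7 keratins, 6 had enough reads to be tested, and all 6 were called higher in KO by edgeR's quasi-likelihood test at an adjusted p under 0.05. In each of these 6, every KO library lay above every WT library. Krt20 had no WT count and passed the filter through its KO counts alone. Its direction and lack of overlap were therefore fixed beforehand, and it adds no support to these counts. Over all 15811 genes tested, 30% were called in either direction, 17.6% were called higher and 18.7% had every KO library above every WT library. The median log2 fold change of the 6 keratins was 2.48, also with Krt20 at its lower bound, against -0.05 for all genes tested. Calls over all genes were 2775 higher and 1971 lower with TMM, and 4804 higher and 642 lower with library totals only, where the median of all genes was 0.37. The same 6 keratins were called higher under every setting tried, that one included. These livers were measured in bulk, so more cells of a type and more RNA per cell cannot be told apart.

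**Figure D1:**
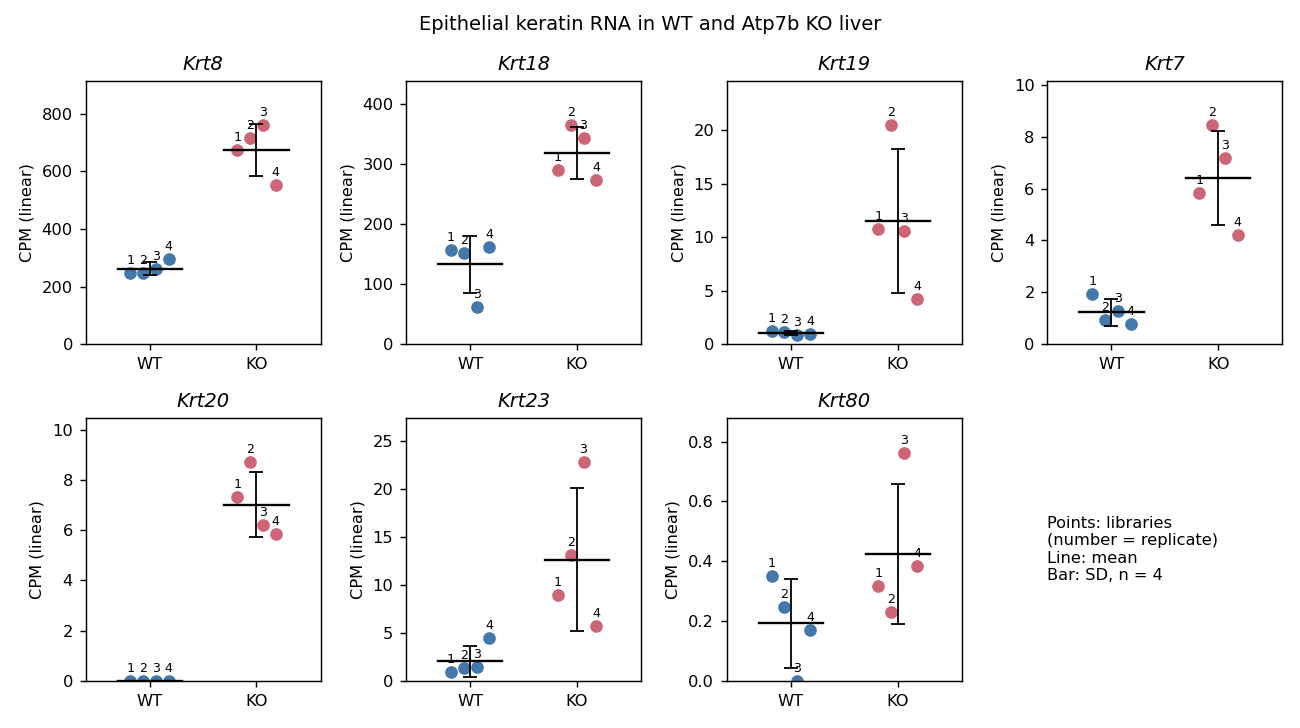
Level of each keratin in CPM (linear axes from 0) in the 4 WT and 4 KO libraries, with replicate numbers beside the points, the mean as a line and the SD as a bar. KO libraries lie above all WT libraries for 6 keratins, and the groups overlap for Krt80, where all libraries are below 0.8 CPM.

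Krt8 and Krt18, the hepatocyte pair, were by far the most abundant of the 7 and had the smallest factors of the 6 tested. Krt8 (ENSMUSG00000049382.10) lies on the minus strand of chromosome 15 at 101996698 to 102004482 in mm10. WT replicates 1 to 4 read 246, 248, 259 and 296 CPM of Krt8, and KO replicates 1 to 4 read 672, 714, 761 and 551 CPM. The WT libraries lay close together, and the lowest KO library, replicate 4, was still well above them. Krt8 rose from 262 ± 23.2 to 675 ± 90.0 CPM (SD, n = 4 each), a log2 fold change of 1.36 ± 0.18 (SE) or 2.57-fold (edgeR, adjusted p = 0.000233).

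Krt18 (ENSMUSG00000023043.7) lies on the plus strand of chromosome 15 at 102028180 to 102032027. Its level was 156, 152, 62.1 and 162 CPM in WT and 289, 365, 343 and 274 CPM in KO, replicates 1 to 4 in each. WT replicate 3 was far below the other WT libraries, which did not reach the KO range either. Krt18 rose from 133 ± 47.5 to 318 ± 43.3 CPM (SD, n = 4 each), a log2 fold change of 1.25 ± 0.29 (SE) or 2.38-fold (edgeR, adjusted p = 0.00726). Without WT replicate 3 the log2 fold change was 1.0 (edgeR, adjusted p = 0.000148).

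The balance of the pair was read within each library, where the scaling factor drops out. Krt8 counts were 1.57, 1.63, 4.17 and 1.82 times the Krt18 counts in WT replicates 1 to 4, and 2.33, 1.96, 2.22 and 2.01 times in KO replicates 1 to 4. All KO libraries lay between WT replicate 3 and the other WT libraries. The log2 ratio was 1.07 ± 0.67 in WT and 1.09 ± 0.12 in KO (SD, n = 4 each), a difference of 0.02 (exact two-sided permutation test, p = 1). Without WT replicate 3 every KO library had the higher ratio, with a difference of 0.35, and the p of 0.0571 was the smallest that 3 against 4 libraries can give in the exact test. Krt8 and Krt18 transcripts have close GC contents of 57.1% and 56.4%, and the GC trend of WT replicate 3 was -0.35 for Krt8 and -0.34 for Krt18 on the log2 scale. Removing these trends left the ratio difference at 0.02.

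Both genes lie side by side on chromosome 15 and are read in opposite directions, with 23698 bases between their starts in the GENCODE M21 annotation. Krt18 is the one type I gene among the 7 that is not on chromosome 11. Of 11 other tested genes within 250 kb, 1 was called higher and 3 lower, against 17.6% and 12.5% of all genes tested. The one called higher was Gm36026, a long noncoding RNA that overlaps Krt8 on the opposite strand and had 529 counts in WT and 1734 in KO. The strand setting of the counting is not given, so its reads cannot be told from those of Krt8, which had 15553 and 52601 counts. A near-identical processed pseudogene, Krt8-ps, held 0.519% to 0.733% as many counts as Krt8 in a library, and adding them left the Krt8 log2 fold change at 1.36.

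Krt19 and Krt7, the type I and type II keratins of bile duct cells, were near 1 CPM in WT and rose in KO. Krt19 (ENSMUSG00000020911.14) lies on the minus strand of chromosome 11 at 100140810 to 100148665. WT replicates 1 to 4 read 1.23, 1.11, 0.849 and 0.943 CPM of Krt19. KO replicates 1 to 4 read 10.7, 20.5, 10.6 and 4.22 CPM of Krt19. KO replicate 2 held the highest and KO replicate 4 the lowest KO value, a wider spread than for Krt8 or Krt18. Krt19 rose from 1.03 ± 0.170 to 11.5 ± 6.71 CPM (SD, n = 4 each), a log2 fold change of 3.46 ± 0.46 (SE) or 11-fold (edgeR, adjusted p = 0.000272).

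Krt7 (ENSMUSG00000023039.17) lies on the plus strand of chromosome 15 at 101411043 to 101430313. Its level was 1.94, 0.922, 1.27 and 0.772 CPM in WT and 5.84, 8.45, 7.16 and 4.22 CPM in KO, replicates 1 to 4 in each. As for Krt19, KO replicate 2 was the highest and KO replicate 4 the lowest of the KO libraries, and the groups did not overlap. Krt7 rose from 1.23 ± 0.518 to 6.42 ± 1.81 CPM (SD, n = 4 each), a log2 fold change of 2.44 ± 0.34 (SE) or 5.43-fold (edgeR, adjusted p = 0.000408). The antisense gene Gm671, which overlaps Krt7, had 2 counts in WT and 22 in KO, against 64 and 505 for Krt7.

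Whether Krt19 and Krt7 rose more than Krt18 and Krt8 was asked with ratios inside each library, 3 ratios in all. Bile duct cells hold Krt8 and Krt18 too, so these ratios do not set duct keratin against hepatocyte keratin. The log2 ratio of Krt19 to Krt18 counts was -6.94, -7.06, -6.08 and -7.39 in WT replicates 1 to 4 and -4.75, -4.15, -5.02 and -6.01 in KO replicates 1 to 4. The groups did not overlap, although KO replicate 4 came close to WT replicate 3. The mean moved from -6.87 ± 0.56 to -4.98 ± 0.78 (SD, n = 4 each), 1.89 higher in KO or 3.70-fold. The exact two-sided permutation p of 0.0286 is the smallest for 4 against 4 libraries, and it was 0.0857 after adjustment over the 3 ratios. Without WT replicate 3 the Krt19 to Krt18 difference was 2.15 (exact two-sided permutation test, p = 0.0571 before adjustment). That p is the smallest for 3 against 4 libraries.

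For Krt7 to Krt8, the log2 ratio was -6.96, -8.02, -7.59 and -8.54 in WT replicates 1 to 4 and -6.84, -6.40, -6.73 and -7.02 in KO replicates 1 to 4. WT replicate 1 lay above KO replicate 4, so the groups overlapped by 1 library each. The mean moved from -7.78 ± 0.67 to -6.75 ± 0.26 (SD, n = 4 each), 1.03 higher in KO (exact two-sided permutation test, p = 0.0571, and 0.0857 after adjustment over the 3 ratios). Neither the Krt19 to Krt18 nor the Krt7 to Krt8 ratio therefore passed the threshold after adjustment. Without WT replicate 3 the Krt7 to Krt8 difference was 1.09 (exact two-sided permutation test, p = 0.114 before adjustment).

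**Figure D2:**
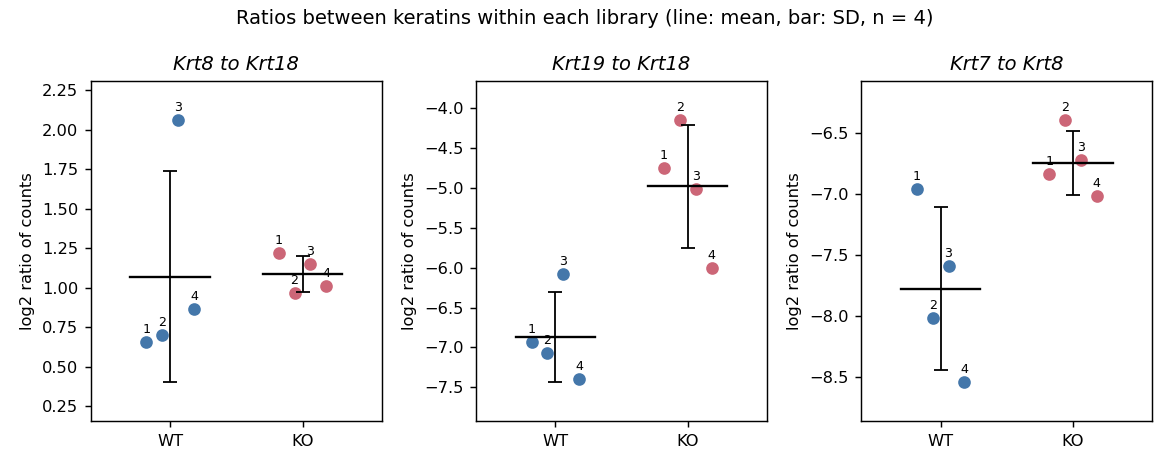
Log2 ratio of read counts of Krt8 to Krt18, Krt19 to Krt18 and Krt7 to Krt8 in each library, with replicate numbers, the mean as a line and the SD as a bar. WT replicate 3 stands apart at 2.06 for Krt8 to Krt18, and KO libraries lie above all WT libraries for Krt19 to Krt18.

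Krt20, a type I keratin best known from intestinal epithelium and the surface cells of the urothelium, had no count in any WT library. KO replicates 1 to 4 had 115, 190, 122 and 122 counts of Krt20 (ENSMUSG00000035775.2, chromosome 11, 99428403 to 99438150, minus strand), or 7.30, 8.73, 6.20 and 5.85 CPM. All 4 KO libraries were alike, within a range narrower than that of Krt19 or Krt23. The KO mean of 7.02 ± 1.3 CPM (SD, n = 4) was at least 136-fold higher than WT, whose floor, 3 counts in its 4 libraries together, is 0.0517 CPM (edgeR, adjusted p = 1.62e-05). Such floors cover counting error only. With no WT count, Krt20 passed the filter through its KO counts alone, so the direction of its call was fixed beforehand.

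The bases before the start of Krt20 are shown because the gene went from no read to more than 100 reads a library, with those of Krt18, which was read in every library, beside them. Sequences are from RefSeq on GRCm38.p6, the assembly also called mm10, at chr11:99438154-99438403 on the minus strand for Krt20 and chr15:102027966-102028179 on the plus strand for Krt18. The Krt18 stretch stops at the GENCODE start, 36 bases before the RefSeq start. Both are written 5′ to 3′, and capitals mark matches to the motifs named next.
Krt20: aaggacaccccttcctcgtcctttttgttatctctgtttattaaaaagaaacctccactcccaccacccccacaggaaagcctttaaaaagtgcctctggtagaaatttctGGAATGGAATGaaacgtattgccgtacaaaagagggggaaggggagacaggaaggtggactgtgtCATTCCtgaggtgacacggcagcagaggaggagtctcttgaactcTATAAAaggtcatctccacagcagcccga
Krt18: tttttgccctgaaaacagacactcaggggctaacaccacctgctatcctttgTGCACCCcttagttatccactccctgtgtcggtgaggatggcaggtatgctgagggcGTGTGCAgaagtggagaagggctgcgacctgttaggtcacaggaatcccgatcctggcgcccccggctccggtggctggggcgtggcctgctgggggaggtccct

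Motifs were searched on both strands in 300 bases around each RefSeq start, where position -1 is the base before the start. The TATA box letters TATAAA were found at position -29 of Krt20, and 13.6% of 32851 promoters of that length hold them. The TEAD letters GGAATG were found at positions -139, -134 and -74 of Krt20, the first pair overlapping by 1 base and the last on the opposite strand, and 14.7% of promoters hold them. TATAAA also lies at position -1 of Krt8, where the GENCODE start is farther upstream than the RefSeq start. The GC box letters GGGCGG were found at positions -141, -128, -56 and -24 of Krt7, against 35.7% of promoters. Letters of the metal response element core, TGCACNC or TGCGCNC, lay at positions -198 and -141 of Krt18, counted from its RefSeq start, and -36 of Krt7, against 25.7% of promoters. TGANTCA, the AP-1 letters present in 7.81% of promoters, were in none of the 5 windows searched, those of Krt7, Krt8, Krt18, Krt20 and Krt23. These matches describe letters, not bound sites.

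Krt23, a type I keratin known as a stress-inducible gene of mouse liver, was low but present in WT and, like Krt19, spread widely among the KO libraries. Krt23 (ENSMUSG00000006777.7) lies on the minus strand of chromosome 11 at 99477974 to 99493137. Its level was 0.968, 1.35, 1.42 and 4.46 CPM in WT and 8.89, 13.0, 22.8 and 5.66 CPM in KO, replicates 1 to 4 in each. WT replicate 4 was far above the other WT libraries and only a little below KO replicate 4. Krt23 rose from 2.05 ± 1.62 to 12.6 ± 7.45 CPM (SD, n = 4 each), a log2 fold change of 2.53 ± 0.54 (SE) or 5.76-fold (edgeR, adjusted p = 0.00518). Without WT replicate 4 the log2 fold change was 3.34 (edgeR, adjusted p = 0.0017).

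Krt80, a type II keratin of stratified epithelia and hair follicles, had too few reads for the test. Counts of Krt80 (ENSMUSG00000037185.9, chromosome 15, 101347444 to 101370162, minus strand) were 4, 4, 0 and 4 in WT replicates 1 to 4 and 5, 5, 15 and 8 in KO replicates 1 to 4. The groups overlapped, at 0.192 ± 0.148 CPM in WT and 0.423 ± 0.235 CPM in KO (SD, n = 4 each). In a fit without a filter on low counts, its log2 fold change was 1.02 ± 0.61 (edgeR, adjusted p = 0.281), and a difference was not detectable at this depth. An antisense gene within Krt80, Gm35853, had 10 counts in WT and 35 in KO.

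Levels can be set against each other once divided by transcript length, here CPM per kb of the longest coding transcript. On that scale the sum of the 7 keratins was 229 ± 37.5 in WT and 586 ± 80.8 in KO (SD, n = 4 each). Krt8 stood at 134 ± 11.8 in WT and 345 ± 46.0 in KO, and Krt18 at 92.7 ± 33.1 in WT and 221 ± 30.1 in KO. The order of the minor members by mean level changed with genotype, from Krt23 (1.31), Krt19 (0.655), Krt7 (0.299), Krt80 (0.0491) and Krt20 (0) in WT to Krt23 (8.05), Krt19 (7.30), Krt20 (3.64), Krt7 (1.57) and Krt80 (0.108) in KO. The ranges of Krt23 and Krt19 overlapped in both genotypes, and those of Krt19 and Krt20 overlapped in KO, so the order within these pairs is not set.

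The members other than Krt8 and Krt18 together made up 0.831%, 0.792%, 0.988% and 1.37% of the summed level in WT replicates 1 to 4, and 3.16%, 4.33%, 4.04% and 2.17% in KO replicates 1 to 4. Every KO library was above every WT library in this share, and Krt8 with Krt18 still made up the rest. By mean, Krt23 held the largest minor share, 0.551 ± 0.357% in WT and 1.32 ± 0.645% in KO (SD, n = 4 each). Krt19 held more than Krt23 in WT replicate 1 and in KO replicates 1 and 2. The Krt23 groups overlapped, WT replicate 4 at 1.06% lying above KO replicates 1 and 4. Krt19 held 0.289 ± 0.0460% in WT and 1.2 ± 0.607% in KO, and Krt20 held 0.624 ± 0.0928% in KO (SD, n = 4 each). Krt7 held 0.136 ± 0.0620% in WT and 0.264 ± 0.0436% in KO (SD, n = 4 each), or 0.0788% and 0.154% when its length was taken as all annotated exons.

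**Figure D3:**
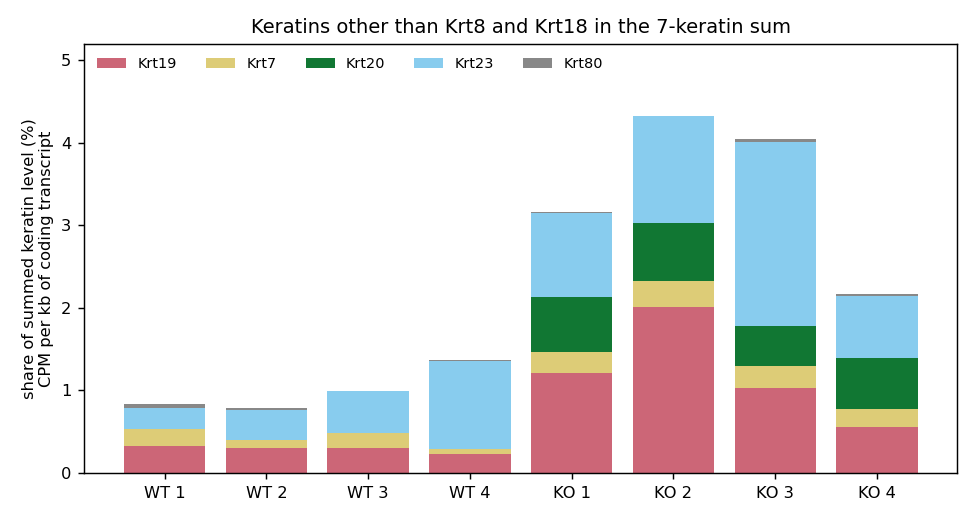
Stacked bars give the share (in percent, axis from 0) that Krt19, Krt7, Krt20, Krt23 and Krt80 take of the summed CPM per kb of the 7 keratins in each library. The bars reach 0.792% to 1.37% in WT and 2.17% to 4.33% in KO, and Krt20 appears only in the KO bars.

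Among the KO libraries, all 6 called keratins were lowest in replicate 4. Of all 2775 genes called higher, 45.4% were lowest in that library, and the keratins share its scaling factor. Relative to the mean of the KO libraries on the log2 scale, replicate 4 was at -1.24 for Krt19, -0.97 for Krt23 and -0.56 for Krt7, and at -0.28 for Krt8, -0.21 for Krt18 and -0.24 for Krt20. The upper end was not shared. Replicate 2 was highest for Krt7, Krt18, Krt19 and Krt20, and replicate 3 for Krt8 and Krt23.

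Markers of cholangiocytes, the cells that line bile ducts, were higher in KO, as the keratins were, and shared with them the low KO replicate 4. Their summed level, keratins left out, was 52.7 to 108 CPM in WT and 492 to 1166 CPM in KO. Spp1 alone made up most of that sum, at 26.6 to 66.3 CPM in WT and 386 to 931 CPM in KO. With a median log2 fold change of 3.88, 10 of 11 tested markers were called higher by edgeR, against 17.6% of all genes tested. Of 13 cholangiocyte markers, 12 had their lowest KO value in replicate 4, which also had the lowest sum, 492 CPM. Of all genes tested, 22.5% were lowest in that library, and of those called higher, 45.4%. Of the defining markers, Epcam averaged 0.713 CPM in WT and 23.7 CPM in KO. The part of cholangiocyte number in the keratin values was not tested.

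**Figure D4:**
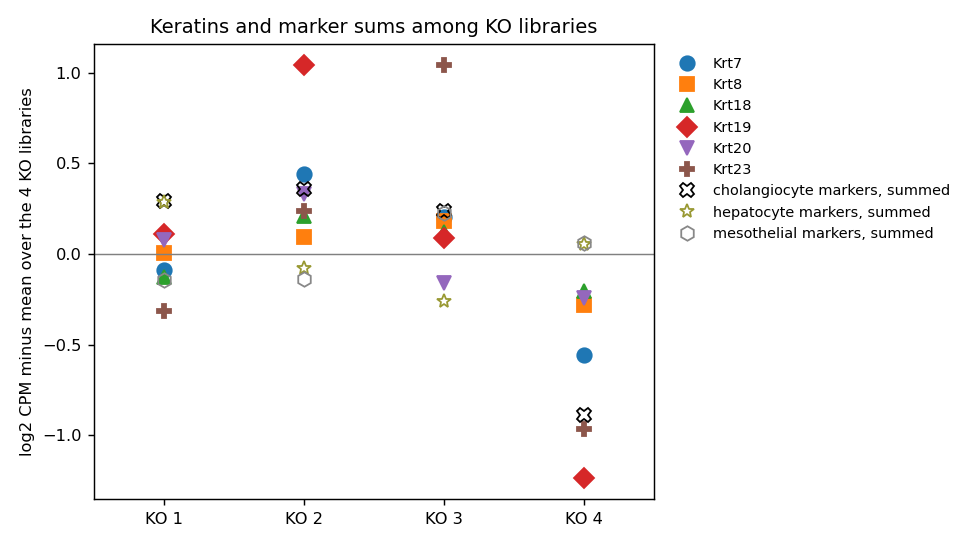
Level of each called keratin, and of summed marker lists, in the 4 KO libraries as log2 CPM minus the mean over these libraries. KO replicate 4 is lowest for all 6 keratins and for the cholangiocyte sum, which is mostly Spp1. The hepatocyte and mesothelial sums are slightly above 0 there.

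Hepatocyte markers, which accompany Krt8 and Krt18, went the other way or did not pass the test. Their summed level was 73447 to 129112 CPM in WT and 48259 to 70467 CPM in KO, with a median log2 fold change of -0.67. Over all genes tested, 17.6% were called higher and 12.5% lower. Of the 12 hepatocyte markers, 0 were called higher and 4 (Apoa1, Hnf4a, Ass1 and Pck1) lower. Without WT replicate 3, 8 were called lower, and without WT replicate 4, KO replicate 1 or KO replicate 2, 1 was. Without WT replicate 2 or KO replicate 3, 2 hepatocyte markers were called lower, and with library totals only, 1. Mesothelial cells, which coat the liver and carry all of Krt7, Krt8, Krt18 and Krt19, had a marker sum of 12.5 to 18.2 CPM in WT and 20 to 25.9 CPM in KO. Of 7 mesothelial markers tested, 1 (Gpm6a) was called higher, and none of the 8 listed was at 0 in all libraries of a group. Their median log2 fold change was 0.19. Without Gpm6a the other 7 summed to 7.22 to 14.96 CPM in WT and 7.24 to 15.1 CPM in KO, which overlap. Their part, like that of hepatocyte number, was not tested.

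Markers of other keratin-bearing tissues were read as a check on what the libraries hold. Of 12 intestinal markers, 4 were tested and 6 had no WT count. Among the 4 tested, 2 (Vil1 and Tff3) were called higher and 1 (Lgals4) lower, against 17.6% and 12.5% of all genes tested. The 12 markers had a sum of 140 to 510 CPM in WT and 169 to 288 CPM in KO, and groups overlapped. Fabp2, which was not called, made up most of it, at 125 to 497 CPM in WT and 125 to 227 CPM in KO. The sum therefore mainly follows that gene. Without KO replicate 2, or with library totals only, the lower call was lost. Pancreatic acinar markers summed to 0.176 to 0.849 CPM in WT and 1.25 to 1.70 CPM in KO, with Cpa1 at 0 in all 8 libraries and 1 marker tested and not called, although it was called higher without WT replicate 3, with upper-quartile factors and with library totals only. Squamous markers summed to 0.283 to 0.983 CPM in WT and 3.62 to 7.92 CPM in KO, with Sprr1b at 0 throughout. Of 2 tested, Sprr1a (0 WT and 280 KO counts) was called higher and Sbsn was not (edgeR, adjusted p = 0.105). With no WT count, Sprr1a could pass the filter only through its KO counts, so its direction was fixed beforehand. Without WT replicate 2, with limma-voom and with library totals only, 2 squamous markers were called higher. The part of these tissues in the keratin values was not tested.

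Beyond the 7, the table holds 48 other keratins, mostly of skin, hair and stratified epithelia, and 41 of them had no count in any WT library. Of these 41, 34 (82.9%) had at least 1 count in KO, against 51.0% of the protein-coding genes that had no WT count, at summed totals of 66498181 counts in WT and 67135766 in KO. WT libraries had counts for 3 to 5 of the 48 and KO libraries for 19 to 26. KO libraries had counts for more genes throughout, 26082 to 27149 of all 54232 against 19726 to 23119 in WT. These were small numbers. Leaving out Krt10, the 48 summed to 2 to 12 counts in a WT library and 40 to 80 in a KO library. The highest among those silent in WT was Krt17, a type I keratin of basal and injured epithelia, with 14, 20, 12 and 4 counts in KO replicates 1 to 4, at least 12.6-fold higher than the WT floor and far below Krt20. Krt17 did not pass the filter with all 8 libraries. It passed the filter and was called higher in 5 of the 8 fits that left out a library, those without WT replicate 1, 2, 3 or 4 or KO replicate 4. With no WT count, Krt17 could pass only through its KO counts, so the direction of these calls was fixed beforehand. Krt10, a type I keratin of differentiated epidermis, was the one tested with all libraries, at 2.01 ± 1.33 CPM in WT and 1.49 ± 0.460 CPM in KO (SD, n = 4 each, edgeR, adjusted p = 0.593). Its log2 fold change of -0.35 turned to 0.11 without WT replicate 3 and to 0.10 with library totals only.

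Other intermediate filament genes were read beside the keratins. Of 8 tested, 3 were called higher and 0 lower, against 17.6% and 12.5% of all genes tested. The median log2 fold change of these 8 was 0.49. Vim, the filament protein of mesenchymal cells, rose from 13.5 ± 3.0 to 29.8 ± 6.30 CPM (SD, n = 4 each), a log2 fold change of 1.13 ± 0.22 (SE) (edgeR, adjusted p = 0.00316). Prph, a neuronal filament gene, rose by 1.41 on the log2 scale (edgeR, adjusted p = 0.00858) from a low level of 0.394 CPM. Lmna, which encodes the nuclear lamins A and C, rose by 0.64 (edgeR, adjusted p = 0.0117), and Synm, encoding synemin, was at 0.74 (edgeR, adjusted p = 0.211).

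Plakins and desmosome genes, which tie keratin filaments to the cell border, were called in both directions. Of 14 tested, 2 were higher and 3 (Perp, Dsc2 and Pkp4) lower, against 17.6% and 12.5% of all genes tested. The median log2 fold change of these 14 was 0.03. Pkp1, the desmosomal plakophilin 1, had 3 WT counts and 321 KO counts, or 79.5 times as many per library size (27.0 to 388, 95% interval for counting error) (edgeR, adjusted p = 5.83e-05). The 3 WT counts were all in replicate 1, and the fitted log2 fold change of 6.09 became 9.19, which is no bound, without WT replicate 1 and 5.43 without WT replicate 4. Ppl, encoding the plakin periplakin, rose from 12.8 ± 7.30 to 37.9 ± 6.94 CPM (SD, n = 4 each; edgeR, adjusted p = 0.0157). Perp, a desmosomal membrane protein gene, fell by 0.78 on the log2 scale (edgeR, adjusted p = 0.00973), and not with library totals only (-0.32, adjusted p = 0.163). Dsc2, a desmosomal cadherin gene, fell by 0.87 (edgeR, adjusted p = 0.017), a call lost without WT replicate 4 (0.0521), KO replicate 1 (0.0543) or KO replicate 2 (0.0528) and with library totals only (0.166). Without WT replicate 3, 4 members of this list were called higher and 4 lower, and without WT replicate 4, KO replicate 1 or KO replicate 2, 2 were higher and 1 lower. With library totals only, 4 were higher and 0 lower.

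Genes for keratin aggregates and their chaperones showed 3 of 11 called higher and 0 lower, against 17.6% and 12.5% of all genes tested. The median log2 fold change of these 11 was 0.12. Tgm2, the transglutaminase that cross-links keratins in mouse models of Mallory-Denk bodies, rose from 96.2 ± 35.3 to 292 ± 57.0 CPM (SD, n = 4 each), a log2 fold change of 1.6 ± 0.30 (SE) (edgeR, adjusted p = 0.00228). Sfn, encoding the keratin-binding 14-3-3 sigma, rose by 1.61 (edgeR, adjusted p = 0.00193). Cryab, a small heat shock protein gene, was called at 1.2 (edgeR, adjusted p = 0.0382). Its adjusted p passed 0.05 without WT replicate 2 (0.0838), WT replicate 4 (0.0959), KO replicate 1 (0.0655), KO replicate 2 (0.108) or KO replicate 3 (0.109) and with the number series as a term (0.0837). Ubb, a ubiquitin gene, was at 0.67 (edgeR, adjusted p = 0.0687), and Sqstm1, which encodes p62, averaged 358 CPM in WT and 297 CPM in KO without a call (edgeR, adjusted p = 0.399). Without WT replicate 3, 4 members of 12 tested were called higher and 2 lower.

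Epithelial transcription factors were called in both directions. Of 11 tested, 6 (Ehf, Elf3, Grhl1, Grhl2, Ovol1 and Klf6) were higher and 2 (Foxa1 and Onecut2) lower, against 17.6% and 12.5% of all genes tested. With library totals only, 8 of these factors were higher and 0 lower. Their median log2 fold change with TMM was 1.44. Ehf, an ETS factor of epithelial cells, rose from 0.849 ± 0.669 to 16.0 ± 7.29 CPM (SD, n = 4 each), a log2 fold change of 4.30 ± 0.52 (SE) (edgeR, adjusted p = 0.000163). Without WT replicate 1 it was 4.97 (edgeR, adjusted p = 0.000137). Elf3, another epithelial ETS factor, rose by 2.97 (edgeR, adjusted p = 0.000417). The grainyhead factors Grhl1 and Grhl2, which act on epithelial junction genes, rose by 2.27 (edgeR, adjusted p = 0.00149) and 3.17 (edgeR, adjusted p = 0.00353), the latter by 3.98 without WT replicate 1. The lower calls numbered 1 in place of 2 without WT replicate 1 or without any of the 4 KO replicates in turn.

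**Figure D5:**
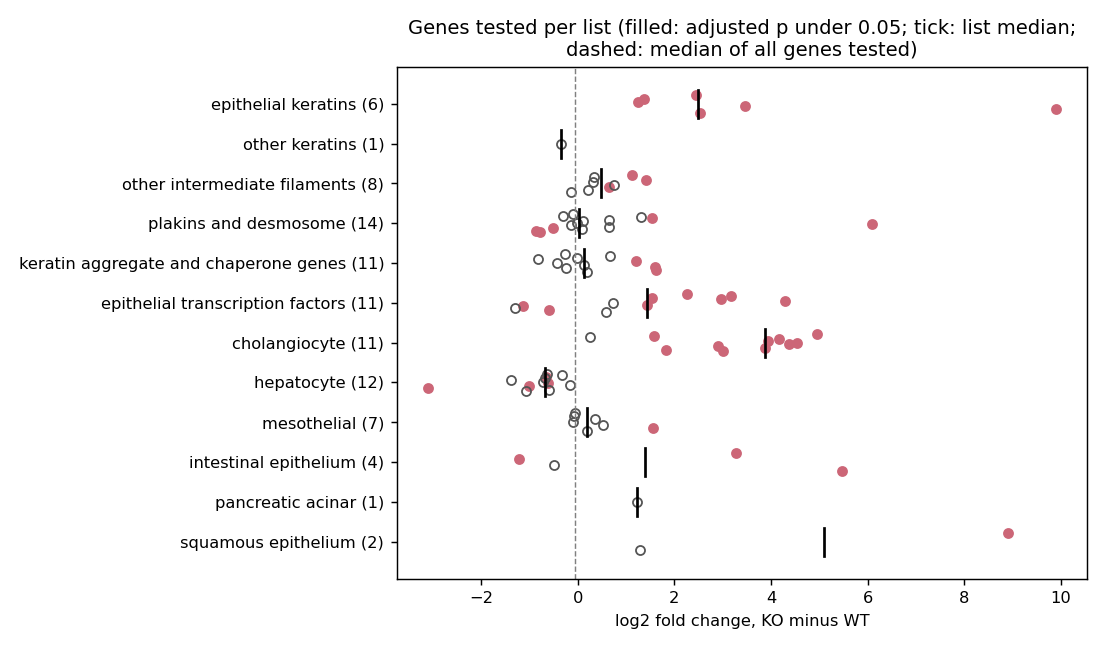
Log2 fold change, KO minus WT, of each tested gene by list, with the number tested in brackets, filled points for genes called at an adjusted p under 0.05, a tick at each list's median and a dashed line at the median of all genes tested (-0.05). All 6 tested keratins are filled and to the right of 1, like 10 of 11 cholangiocyte markers, while desmosome genes lie on both sides.

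The genes most like each keratin were found by the root mean square (RMS) difference of log2 CPM profiles over the 8 libraries, each centred on its WT mean, among 12209 other genes that averaged 1 CPM or more. Nearest to Krt8 were H2-Aa at an RMS difference of 0.11, Rps6kc1 at 0.13 and the pseudogene Krt8-ps at 0.15. Nearest to Krt18 were Cers5 at 0.10, Timp2 at 0.12 and Ift122 at 0.13. All 3 had their lowest WT value in WT replicate 3, as Krt18 did. Krt7 was nearest to Ift57, Ctsk and Itgb4, at 0.21 to 0.23, and Krt19 to Slc44a4, Emp1 and Slc5a1, at 0.30 to 0.33. Krt20 was nearest to Tinag, Syt14 and Asb12, at 0.15 to 0.31, each with at most 1 WT count. Krt23 had the most distant neighbours, Oscp1, Asb4 and Plat, at 0.51 to 0.56.

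Library names carry numbers that fall into 3 series, A with 1 WT and 2 KO libraries, B with 1 and 1, and C with 2 and 1. Taken inside each series in that order, the log2 difference of Krt8 was 1.49, 1.55 and 1.03. That of Krt18 was 1.05, 2.46 and 0.80, series B being WT replicate 3 against KO replicate 3. Krt19 gave 3.47, 3.47 and 1.93, Krt7 gave 1.80, 2.39 and 2.17, and Krt23 gave 3.33, 3.90 and 1.16. Krt20 gave 6.11, 5.75 and 5.67, values held down by the prior count of 2. All 6 were above 0 in each series, which was fixed beforehand for Krt20 with no WT count, and series C holds KO replicate 4. The Krt8 to Krt18 log2 ratio differed by 0.44, -0.91 and 0.23, the Krt19 to Krt18 ratio by 2.49, 1.06 and 1.22, and the Krt7 to Krt8 ratio by 0.34, 0.87 and 1.26.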

How the data were processed

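Liver RNA was sequenced in 4 WT and 4 KO libraries. The labels' protocols give Trizol extraction, a DNase step and a Qiagen clean-up. FastQC, cutadapt, STAR and mm10 appear in the submitters' processing notes. Not given in the sources used here are the counting program, annotation and strand setting. Raw gene counts were deposited as 1 table, and GENCODE M21 holds 99.7% of its identifiers.

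Genes were filtered with filterByExpr, scaled by TMM and compared with edgeR 4.0.16 (quasi-likelihood test, genotype as the only term, R 4.3.3). Benjamini-Hochberg adjustment covered all 15811 genes. The SE is the log2 fold change divided by the square root of F. Ratios used a prior count of 0.5. On simulated counts of 15535 genes, 55 of 66 genes changed 4-fold and 11 of 67 changed 2-fold were recovered, with 6 false calls among 73. Only 200 genes were changed there, whereas 30% of genes were called in the data. These rates check the code and do not give the rates of the comparison itself.

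The named genes are the 7 keratins, Atp7b, the members of each list with the smallest p-values (up to 4), except for the cell type markers, and the 3 genes nearest to each keratin by profile. Names outside that rule (Sqstm1, Krt17, the other called list members and markers, and overlapping genes) were chosen after their values were seen. The keratins and the lists were chosen with earlier results of these data known. Replicates are numbered in accession order. Alternatives were DESeq2 1.42.0, limma-voom (limma 3.58.1), RLE and upper-quartile factors, library totals only, no filter, at least 1 CPM in 4 libraries, a stricter threshold (0.01) on the adjusted p, a term for the number series and leaving out each library. A GC offset and the pooling of Krt8-ps with Krt8 were added after seeing the data. Some cell type markers are not reported here by name.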

Additional observations from a re-analysis of the deposited data

Results flagged for a closer look

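A library was marked where its gap to the nearest of its 4-library group exceeded Dixon's 95% critical share of the group's range. Of 42 groups examined (each keratin, ratio and list sum in WT and in KO), 7 were marked, and chance alone marks about 1 in 20. Krt18 in WT replicate 3 was at 62.1 CPM, below the other WT libraries at 152 to 162 CPM. The Krt8 to Krt18 log2 ratio of that library was 2.06, above 0.65 to 0.87. Krt23 in WT replicate 4 was at 4.46 CPM, above 0.968 to 1.42 CPM. The summed level of the other keratins in WT replicate 3 was 4.25 CPM, above 1.67 to 2.09 CPM. Krt10 alone was at 3.96 CPM there, and without Krt10 that library had 2 counts, against 5 to 12 in the other WT libraries. The intestinal markers summed to 510 CPM in WT replicate 3, above 140 to 198 CPM, with Fabp2 alone at 497 CPM. The keratin aggregate and chaperone genes summed to 2034 CPM in KO replicate 1, below 2458 to 2524 CPM. The cholangiocyte markers summed to 492 CPM in KO replicate 4, below 1072 to 1166 CPM. Spp1 made up most of these sums, at 386 CPM in KO replicate 4 and 864 to 931 CPM in the other KO libraries.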

How the results depend on the processing

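All 6 called keratins kept their direction and stayed at an adjusted p under 0.05 in edgeR, DESeq2 and limma-voom, under each scaling, filter and covariate tried, and without any 1 library, with a largest adjusted p of 0.0254 for Krt18 without KO replicate 2. The count of keratins called stayed at 6, and Krt20, with no WT count, could not change direction. Genes called higher over the whole table numbered 2775, and 4804 with library totals only, 4244 without a filter, and 2325 to 4267 when 1 library was left out. Genes called lower numbered 1971, and 642 with library totals only, 912 at an adjusted p under 0.01, and 1315 to 3837 when 1 library was left out. Both upper ends are without WT replicate 3. The Krt8 to Krt18 difference of 0.02 ranged from -0.12 to 0.35 when 1 library was left out, and turned below 0 without WT replicate 1 (-0.12), WT replicate 2 (-0.11), WT replicate 4 (-0.05), KO replicate 1 (-0.03) or KO replicate 3 (-0.0049). The Krt19 to Krt18 difference ranged from 1.61 to 2.23 and the Krt7 to Krt8 difference from 0.78 to 1.31. With 1 library left out the exact test cannot go below 0.0571. Krt10 turned from -0.35 to 0.10 with library totals only and 0.11 without WT replicate 3, with -0.56 to 0.11 when 1 library was left out, and the cause was not tested. No paired analysis was possible because the labels give no replicate numbers that the genotypes share. Depth limits Krt80 and the other keratins, where 3 counts are 0.129 to 0.425 CPM.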
